A study of Mus musculus with 9 samples.

Results

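The probe sets of 10 genes were examined: Galc, Arsk, Tmem267, Taf15, Terf1, Zfp429, Zfp874a, Zfp979, Mid1 and Pcdhb9. The genes were chosen by their log2 differences from wild type in an earlier look at these same arrays, so those differences are given as a description, and counts of calls among them are printed only beside the share of all probe sets called. Every probe set that the platform annotation assigned to 1 of these genes and to no other gene was taken, which gave 18 of the 45037 probe sets that were not array controls, and 10 of the 18193 genes with a probe set of their own. A probe set is a group of short probes read as 1 value. Of the 10 genes, 5 had several probe sets and 5 had 1.

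The genes belong to different pathways. Galc encodes the lysosomal enzyme that breaks down galactosylceramide, and its loss causes Krabbe disease in human and the twitcher phenotype in mouse. Arsk encodes a lysosomal sulfatase acting on sulfated glucuronate in glycosaminoglycans. Terf1 encodes TRF1, the shelterin subunit that binds telomeric repeats, and Taf15 encodes an RNA-binding protein of the FET family that associates with the transcription factor TFIID. Mid1 encodes a microtubule-bound ubiquitin ligase whose human counterpart is mutated in Opitz syndrome. Pcdhb9 belongs to the clustered protocadherins, neuronal adhesion proteins, and Tmem267 encodes a predicted membrane protein. Zfp429, Zfp874a and Zfp979 encode C2H2 zinc finger proteins and lie in clusters of such genes, which differ in copy number and sequence between mouse strains and contain near-identical members.

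Total RNA of the dissected terminal colon was measured in 9 mouse embryo samples, 3 per genotype. The Ednrb null group carried the lacZ allele of Ednrb on both chromosomes. The Ednrb NCC null group was titled Ednrb-FLEX and labelled as mutant in NCC cells, an abbreviation that the labels do not spell out, and no driver of the deletion was named. The third group was labelled wild type. Sample labels put the stage at embryonic day 14, the series text at 14.5. The sources used here give no strain background and do not say whether samples were separate embryos. The adjusted p-values cover the spread among the arrays only, which may be technical. In bulk tissue, fewer cells of a type and less RNA per cell cannot be told apart.

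Ednrb encodes endothelin receptor B, which the enteric neural crest needs to reach the terminal gut. Its brightest probe set read 9.23, 9.40 and 8.77 in Ednrb null arrays, 11.15, 11.32 and 11.04 in Ednrb NCC null arrays, and 11.08, 10.95 and 11.05 in wild type, in log2 intensity. The Ednrb null samples were therefore the low ones, as their label says. Ednrb NCC null overlapped wild type, so these values do not check that label. The 7 measured markers of enteric neural crest and neurons had a mean log2 intensity of 6.99 to 7.47 in Ednrb null and 7.28 to 7.48 in Ednrb NCC null, against 8.33 to 9.26 in wild type, with 5 of the 7 called lower for Ednrb null and 4 called lower for Ednrb NCC null. The 10 epithelial markers averaged 10.24 to 10.73 in Ednrb null arrays, 11.13 to 11.39 in Ednrb NCC null arrays and 10.68 to 10.86 in wild type, with 6 of the 10 called lower in Ednrb null than in Ednrb NCC null. The 4 red blood cell markers averaged 11.26 to 11.47 in Ednrb null arrays, 10.65 to 10.90 in Ednrb NCC null arrays and 10.45 to 10.65 in wild type, with 2 of the 4 called higher in Ednrb null. The log2 ratio of the 3′ to the 5′ control probe sets of Actb, a measure of RNA and labelling quality, was 0.80 to 0.90 in Ednrb null arrays, 1.03 to 1.40 in Ednrb NCC null arrays and 1.08 to 1.32 in wild type. Every Ednrb null array lay below all others, so a fit with this ratio cannot part it from that genotype. Xist was low in wild type 1C, at 6.70 against 11.60 to 14.07 elsewhere, and the mean of 3 Y-linked genes was low in Ednrb NCC null 2 and 6, at 3.74 and 5.76 against 7.65 to 9.38 elsewhere. The Y-linked level was 9.38 in wild type 1C, and Xist was 13.99 and 13.94 in Ednrb NCC null 2 and 6. In the remaining arrays both were high, Xist at 11.60 to 14.07 and the Y-linked genes at 7.65 to 9.38. What embryos the samples hold was not tested. Between the mutants, the smooth muscle markers averaged 11.0 to 11.34 in Ednrb null and 11.4 to 11.67 in Ednrb NCC null, and the macrophage markers 8.25 to 8.60 in Ednrb null and 8.71 to 8.86 in Ednrb NCC null. The mesothelial markers averaged 8.75 to 8.95 in Ednrb null arrays, 9.10 to 9.33 in Ednrb NCC null arrays and 7.13 to 8.75 in wild type. What part these cell type differences have in the results was not tested.

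Zfp429, Zfp874a and Arsk share a stretch of promoter letters, so their promoters are shown. All 3 lie on chromosome 13 and were lower in Ednrb null than in both other groups. Tmem267, also on chromosome 13, and Galc, Taf15 and Mid1 were also lower in Ednrb null than in both other groups and did not hold these letters. The sequences are RefSeq's, build GRCm38.p6, minus strand, 250 bases before to 50 after the gene start, written 5′ to 3′ with the match to GGGANNTGTAGT in capitals. They are Zfp429 at chr13:67399718-67400017, Zfp874a at chr13:67451575-67451874 and Arsk at chr13:76098611-76098910.
Zfp429: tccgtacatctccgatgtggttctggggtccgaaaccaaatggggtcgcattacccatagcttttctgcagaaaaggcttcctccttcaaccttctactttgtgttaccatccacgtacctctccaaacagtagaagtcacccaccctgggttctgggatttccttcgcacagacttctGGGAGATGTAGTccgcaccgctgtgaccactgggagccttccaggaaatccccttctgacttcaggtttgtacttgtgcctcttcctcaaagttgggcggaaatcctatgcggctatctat
Zfp874a: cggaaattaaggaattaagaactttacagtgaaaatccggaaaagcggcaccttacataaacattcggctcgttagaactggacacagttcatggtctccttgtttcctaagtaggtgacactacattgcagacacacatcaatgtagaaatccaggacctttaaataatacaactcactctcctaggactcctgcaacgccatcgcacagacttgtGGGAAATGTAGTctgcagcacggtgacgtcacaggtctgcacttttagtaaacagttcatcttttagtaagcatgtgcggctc
Arsk: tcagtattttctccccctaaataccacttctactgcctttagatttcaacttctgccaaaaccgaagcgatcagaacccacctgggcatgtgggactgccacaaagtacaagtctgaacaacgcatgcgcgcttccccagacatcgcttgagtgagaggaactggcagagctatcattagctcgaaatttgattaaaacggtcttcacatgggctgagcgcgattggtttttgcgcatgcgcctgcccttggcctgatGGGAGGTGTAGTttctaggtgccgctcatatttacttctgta
The match begins at position -71 from the gene start in Zfp429, at -33 in Zfp874a and at 9 in Arsk. The letters were picked after the promoters were searched for the word shared by the most of the genes. Among all words of 10 fixed letters with the same gap of free letters, on both strands, it was the only 1 found in 3 of the genes. Of the 10 genes, 8 had an entry, with 11 promoters, and 3 of these held it, as did 595 of 32851 mouse promoters of the same length, or 1.81%. The search chose the word for its matches here, so nothing is read from that difference. Zfp429 and Zfp874a are neighbouring zinc finger genes, and their promoters are also alike in the letters just before the match. A match is a description and shows no binding.

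Over the 18 probe sets, the Ednrb null minus wild type log2 difference had a median of -1.72, against 0.03 over all probe sets. In limma's moderated test, with Benjamini-Hochberg adjustment over all 45037 probe sets and a threshold of 0.05, 11 of the 18 were called lower in Ednrb null, where 2.52% of all probe sets were, and 0 higher, also at an unadjusted p under 0.05. In 11 of the 18 every Ednrb null array lay below every wild type array, as in 7.93% of all probe sets. The same comparison chose the genes, so nothing is read from those counts. Each of the 10 genes had 1 probe set at least 2-fold lower, a size reached by 0.895% of all probe sets. In Ednrb NCC null, 4 of the 18 were called lower than wild type, where 1.51% of all probe sets were, and they belonged to Galc, Zfp979 and Terf1. Of these, 2 were at least 2-fold lower, against 0.444% of all. In 6 of the 18 every Ednrb NCC null array lay below every wild type array, as in 7.76% of all. Between the mutants, 8 of the 18 were called lower in Ednrb null than in Ednrb NCC null, against 2.57% of all probe sets, and all 8 were at least 2-fold lower, against 0.722% of all. In 9 of the 18 the arrays of Ednrb null lay wholly below those of Ednrb NCC null, as in 9.28% of all. The same mutant arrays chose the genes, so these calls are not independent evidence. In Galc, Terf1 and Zfp979, the probe set with the largest difference was at least 1.99-fold lower than wild type in both mutants. In the other 7 genes that probe set lay between 1.53-fold lower and 1.44-fold higher than wild type in Ednrb NCC null.

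**Figure D1:**
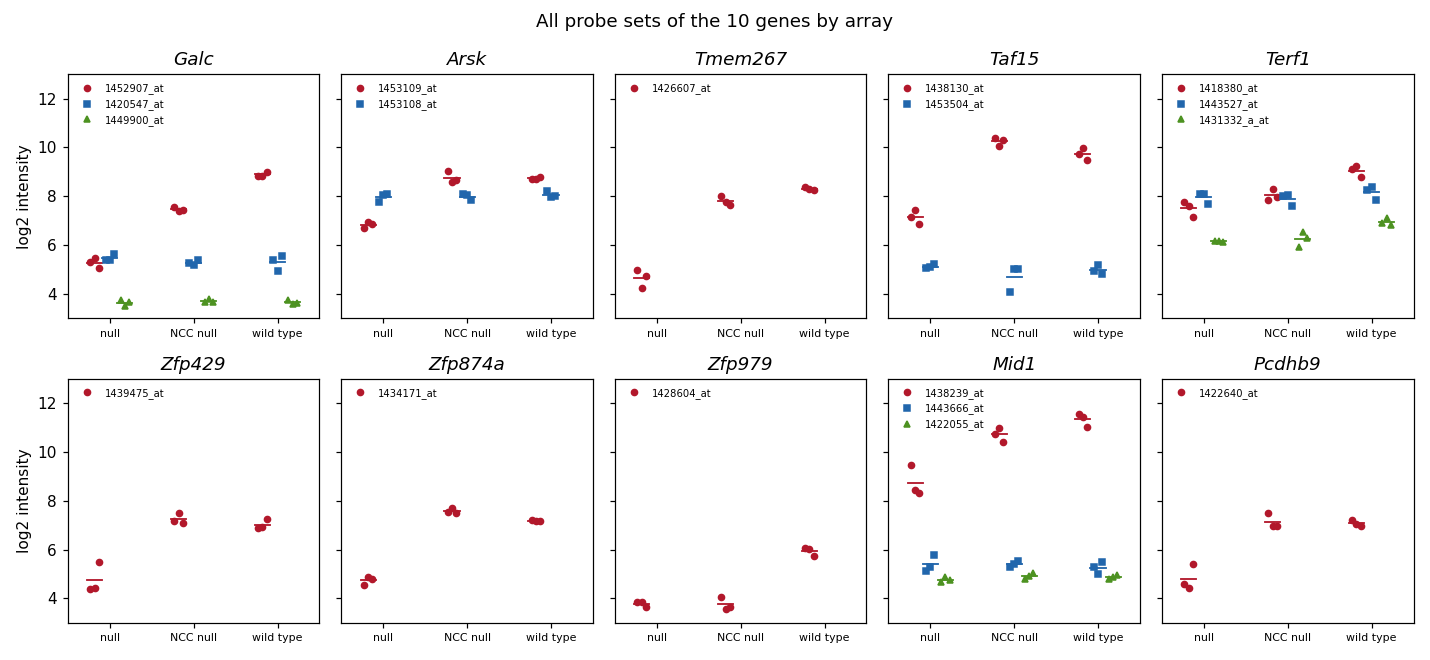
Log2 intensity of each of the 18 probe sets (vertical axis) in the 9 arrays, with Ednrb null at the left, Ednrb NCC null in the middle and wild type at the right; points are arrays, short lines are group means, and colours mark the probe sets of a gene. One probe set of Galc, Arsk, Taf15 and Mid1 is low in Ednrb null while the other probe sets of these genes overlap between Ednrb null and wild type. Those other probe sets are dim in all groups for Galc, Taf15 and Mid1.

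Galc was lower in both mutants, and more so in Ednrb null. Its probe set 1452907_at read 5.32, 5.49 and 5.04 in Ednrb null arrays, 7.57, 7.40 and 7.45 in Ednrb NCC null arrays, and 8.84, 8.84 and 9.00 in wild type. No array of any group reached the range of another. The mean log2 intensity was 5.28 ± 0.22 in Ednrb null arrays, 7.47 ± 0.09 in Ednrb NCC null arrays and 8.89 ± 0.09 in wild type arrays (SD, n = 3 per group). The signal was 12.2-fold lower in Ednrb null than in the wild type, or 8.19% of it, and 2.68-fold lower in Ednrb NCC null than in wild type. Between the mutants the log2 difference was -2.19 ± 0.11 (SE), 4.56-fold lower in Ednrb null (limma, adjusted p = 4.38e-06).

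The other probe sets of Galc did not follow. In 1420547_at the differences from wild type were 0.18 for Ednrb null and -0.01 for Ednrb NCC null (SE 0.15), and all groups overlapped. It was dim in all 9 samples, between the 22.4th and 31.6th percentile of its arrays. That is where 1452907_at stood in Ednrb null, so this probe set had little room to show a fall. In 1449900_at they were -0.01 for Ednrb null and 0.05 for Ednrb NCC null (SE 0.09). This probe set lay between the 5.05th and 7.79th percentile of its arrays in all 9 samples, near the dim end. Both probe sets were designed to 1 sequence record, which differs from the record behind 1452907_at.

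Arsk was lower in Ednrb null than in both other groups. Its probe set 1453109_at read 6.71, 6.95 and 6.88 in Ednrb null arrays, 9.01, 8.59 and 8.68 in Ednrb NCC null arrays, and 8.71, 8.72 and 8.80 in wild type. The Ednrb null arrays lay below all others, and Ednrb NCC null overlapped wild type. The log2 difference was -1.90 ± 0.12 for Ednrb null minus wild type (SE), 3.73-fold lower, and 0.02 ± 0.12 for Ednrb NCC null minus wild type. Between the mutants it was -1.92 ± 0.12 (limma, adjusted p = 9.51e-06). The gene's other probe set, 1453108_at, was designed to the same sequence record and read 7.75, 8.04 and 8.10 in Ednrb null arrays, 8.09, 8.04 and 7.84 in Ednrb NCC null arrays, and 8.23, 7.97 and 8.00 in wild type. Its groups overlapped, with a difference of -0.11 ± 0.12 between Ednrb null and wild type (SE). This probe set lay between the 61.3rd and 67.3rd percentile of its arrays, well inside the measured range.

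Other lysosomal genes were read as well. Of 26 other measured hydrolases and activators, 0 were called lower and 2 higher in Ednrb null than in wild type (at an unadjusted p under 0.05, 1 and 4), with a median log2 difference of -0.03 against 0.04 over all genes. At the level of genes, 2.29% were called lower and 2.51% higher in that comparison. The 2 were Man2b1, a lysosomal alpha-mannosidase, at 0.45 ± 0.08, and Sumf2, related to the sulfatase-modifying factor, at 0.40 ± 0.09 (SE). In Ednrb NCC null, 1 of the 26 was called, Man2b1 at 0.34, where 0.984% of all genes were called lower and 2.92% higher. Between the mutants, 0 were called lower in Ednrb null and 1 higher, Ids at 0.46 ± 0.10 (SE). At an unadjusted p under 0.05 in limma these were 4 and 1. Of all genes, 3.73% were called lower and 1.56% higher between the mutants.

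Tmem267, with a log2 difference of -3.65 for Ednrb null minus wild type, stood beside 1452907_at of Galc, at -3.61, at the low end of the 18 probe sets. Its only probe set, 1426607_at, read 4.98, 4.25 and 4.74 in Ednrb null arrays, 7.99, 7.75 and 7.62 in Ednrb NCC null arrays, and 8.38, 8.29 and 8.24 in wild type. All 3 groups were separate. The mean log2 intensity was 4.66 ± 0.37 in Ednrb null arrays, 7.79 ± 0.19 in Ednrb NCC null arrays and 8.30 ± 0.07 in wild type arrays (SD, n = 3 per group). The signal in Ednrb null was 12.5-fold lower than in wild type and stood at the 13.2nd to 22.6th percentile of the arrays, where RMA values can understate differences. Ednrb NCC null was 1.43-fold lower than wild type. The difference between the mutants was -3.13 ± 0.16 (SE), 8.77-fold (limma, adjusted p = 4.38e-06).

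Taf15 was lower than wild type in Ednrb null by 1 of 2 probe sets, and its rise in Ednrb NCC null was not called. Its probe set 1438130_at read 7.14, 7.44 and 6.87 in Ednrb null arrays, 10.37, 10.04 and 10.32 in Ednrb NCC null arrays, and 9.72, 9.97 and 9.47 in wild type. The Ednrb null arrays were the lowest, and the Ednrb NCC null arrays lay above all wild type arrays. Ednrb null was 5.94-fold lower than wild type. Ednrb NCC null was 1.44-fold higher than wild type, a difference of 0.52 ± 0.16 (SE). The mutants differed by -3.10 ± 0.16 (limma, adjusted p = 4.38e-06). The dimmer probe set 1453504_at had a log2 difference of 0.14 ± 0.22 for Ednrb null minus wild type and 0.42 ± 0.22 for Ednrb null minus Ednrb NCC null (SE). This probe set lay between the 10.9th and 26.0th percentile of its arrays in all 9 samples, so it had little room to show a fall. It read 4.07, 5.02 and 5.02 in Ednrb NCC null arrays, against 5.07 to 5.21 in Ednrb null arrays, so the difference between the mutants rests on Ednrb NCC null 2. With the Actb ratio in the fit that difference was -0.22, and the difference from wild type -0.44.

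Among 14 other FET and TFIID genes, 0 were called lower in any of the 3 comparisons, also at an unadjusted p under 0.05 in limma. Taf7, a TFIID subunit, was called higher, at 0.65 ± 0.14 for Ednrb null and 0.64 ± 0.14 for Ednrb NCC null, each minus wild type (SE). Both values rest on the same wild type arrays.

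Terf1 was lower in both mutants by 2 of its 3 probe sets. In 1418380_at the values were 7.77, 7.59 and 7.16 in Ednrb null arrays, 7.86, 8.29 and 7.98 in Ednrb NCC null arrays, and 9.11, 9.22 and 8.78 in wild type. Both mutants lay below every wild type array, and Ednrb null below every Ednrb NCC null array. Against wild type, the signal was 2.89-fold lower for Ednrb null and 1.99-fold lower for Ednrb NCC null. In 1431332_a_at the values were 6.17, 6.18 and 6.11 in Ednrb null arrays, 5.92, 6.54 and 6.31 in Ednrb NCC null arrays, and 6.92, 7.12 and 6.81 in wild type. Here the mutants overlapped each other, and were 1.73-fold (Ednrb null) and 1.62-fold (Ednrb NCC null) lower than wild type. The probe set 1443527_at overlapped between all groups, with differences from wild type of -0.21 ± 0.17 for Ednrb null and -0.30 ± 0.17 for Ednrb NCC null (SE).

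Between the mutants, no Terf1 probe set passed. The log2 differences were -0.54 ± 0.17 in 1418380_at (limma, adjusted p = 0.12), -0.10 ± 0.14 in 1431332_a_at (adjusted p = 0.805) and 0.09 ± 0.17 in 1443527_at (adjusted p = 0.863). The Ednrb NCC null calls of both lower probe sets were lost when Ednrb NCC null 6 was left out, at -0.96 for 1418380_at and -0.72 for 1431332_a_at. They were also lost when wild type 1B was left out, at -0.96 and -0.71. With the mean level of the Y-linked genes in the fit neither was called, at -0.78 and -0.45. That of 1431332_a_at was lost when wild type 1C was left out as well, at -0.61. It was also lost, at -0.695, when only Ednrb NCC null and wild type were fitted (limma, adjusted p = 0.07).

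Of 13 other shelterin and telomere genes, 0 were called lower in any of the 3 comparisons, and 1 was lower at an unadjusted p under 0.05 in limma, in Ednrb NCC null. In Ednrb null, 2 shelterin subunits were called higher than wild type: Acd by 0.44 ± 0.10 and Terf2ip by 0.35 ± 0.09 (SE). They were also called higher than in Ednrb NCC null, by 0.52 each, where 3.73% of all genes were called lower and 1.56% higher between the mutants.

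Zfp429 and Zfp874a are neighbours on chromosome 13, with 0 measured genes between them in the RefSeq order, and were low in the same arrays. Zfp429 (1439475_at) read 4.38, 4.44 and 5.48 in Ednrb null arrays, 7.18, 7.49 and 7.11 in Ednrb NCC null arrays, and 6.89, 6.94 and 7.25 in wild type. Zfp874a (1434171_at) read 4.53, 4.88 and 4.81 in Ednrb null arrays, 7.55, 7.69 and 7.52 in Ednrb NCC null arrays, and 7.22, 7.17 and 7.17 in wild type. In both genes the Ednrb null arrays lay below all 6 others, and Ednrb null 41 was the highest of its group in Zfp429 only. Zfp429 was 4.79-fold and Zfp874a 5.43-fold lower in Ednrb null than wild type. Between the mutants the log2 difference of Zfp429 was -2.50 ± 0.25 (SE; limma, adjusted p = 4.16e-04). That of Zfp874a was -2.84 ± 0.10 (SE; limma, adjusted p = 2.78e-07). Ednrb NCC null lay above wild type in Zfp874a without overlap, by 0.40 ± 0.10 (SE), and overlapped it in Zfp429, at 0.24 ± 0.25.

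Other zinc finger genes of the same chromosome were read as well. The next gene, Zfp874b, a close relative by name, had a log2 difference of -0.20 for Ednrb null minus wild type and did not pass. Of 25 other chromosome 13 genes named Zfp and a number, 0 were called lower and 1 higher in Ednrb null, Zfp184 at 0.40 ± 0.10 (SE); at an unadjusted p under 0.05 these were 1 and 4. In Ednrb NCC null 1 was called lower than wild type, Zfp322a at -0.69 ± 0.13 (SE). Between the mutants 0 were called lower in Ednrb null and 2 higher, Zfp934 at 0.40 and Zfp322a at 0.54. Of all genes, 3.73% were called lower and 1.56% higher in that comparison. Another probe set that names Zfp429 together with other genes was left out by the rule. The probe sets of such families can pick up RNA of related genes.

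Zfp979, on chromosome 4, was low in both mutants. Its only probe set, 1428604_at, read 3.84, 3.85 and 3.66 in Ednrb null arrays, 4.06, 3.55 and 3.65 in Ednrb NCC null arrays, and 6.06, 6.01 and 5.75 in wild type. All 6 mutant arrays lay below all wild type arrays, and the mutants overlapped each other. Against wild type, the signal was 4.46-fold lower for Ednrb null and 4.55-fold lower for Ednrb NCC null. The mutants differed by 0.03 ± 0.14 (SE; limma, adjusted p = 0.953). Mutant values stood between the 5.12th and 10.7th percentile of their arrays, where RMA values can understate differences. Wild type values stood between the 33.6th and 38.8th percentile. Of 13 other chromosome 4 genes named Zfp and a number, 0 were called lower in Ednrb null and 2 higher, Zfp982 and Zfp991, which neighbour it. In Ednrb NCC null 0 were called lower and 3 higher, the same 2 and Zfp593 at 0.48. At an unadjusted p under 0.05 in limma, 0 were lower and 4 higher in Ednrb null, and 2 lower and 3 higher in Ednrb NCC null.

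Mid1, on chromosome X, was low by 1 of 3 probe sets. In 1438239_at the values were 9.47, 8.45 and 8.31 in Ednrb null arrays, 10.74, 10.99 and 10.42 in Ednrb NCC null arrays, and 11.54, 11.45 and 11.01 in wild type. The 3 groups did not overlap, and Ednrb null 29 stood about 1 log2 unit above the rest of its group. Ednrb null was 6.02-fold lower than wild type, and Ednrb NCC null 1.53-fold lower, at -0.62 ± 0.27 (SE). The mutants differed by -1.98 ± 0.27 (SE; limma, adjusted p = 0.00315). Adding the Actb ratio to the fit gave -1.93, a small change, but it no longer passed (limma, adjusted p = 0.118). In wild type 1C, the array with little Xist, Mid1 read 11.45, inside the range of its group.

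The other Mid1 probe sets were dim and overlapped between groups. In 1443666_at the difference for Ednrb null minus wild type was 0.14, and in 1422055_at it was -0.10. Of 11 other genes of the MID1 complex and related TRIM proteins, among them Igbp1, through which MID1 acts on protein phosphatase 2A, 0 were called in any of the 3 comparisons by limma, and 1 had an unadjusted p under 0.05 in each.

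Pcdhb9, on chromosome 18, was lower in Ednrb null than in both other groups. Its only probe set, 1422640_at, read 4.58, 4.42 and 5.41 in Ednrb null arrays, 7.49, 6.96 and 6.95 in Ednrb NCC null arrays, and 7.21, 7.06 and 6.95 in wild type. Ednrb null lay below all other arrays, with Ednrb null 41 the highest of that group as in Zfp429, and the other groups overlapped. Ednrb null was 4.82-fold lower than wild type. The difference between the mutants was -2.33 ± 0.23 (SE; limma, adjusted p = 4.15e-04). Adding the Actb ratio to the fit gave -1.79, which no longer passed (limma, adjusted p = 0.0524). The 21 other protocadherin beta genes, which share a cluster and much sequence with it, had a median difference of 0.08 in Ednrb null, and 1 was called lower, Pcdhb16 at -0.39 ± 0.09 (SE). It was also called in Ednrb NCC null, at -0.56.

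**Figure D2:**
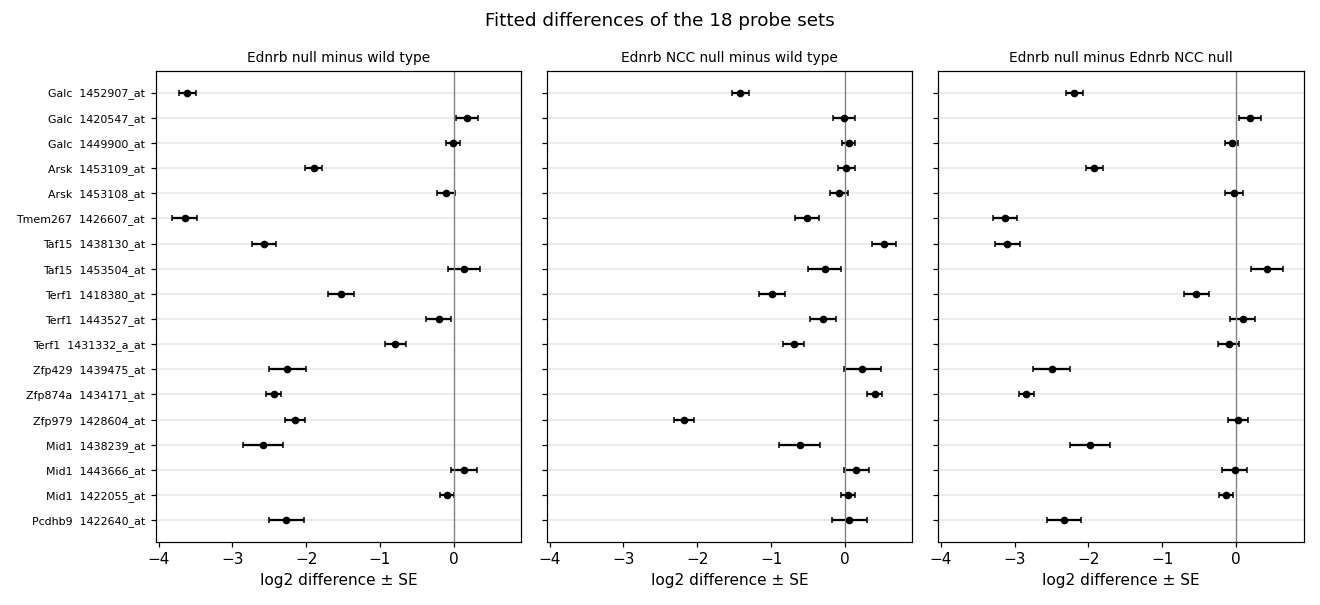
Fitted log2 difference (horizontal axis, bars show ± 1 SE) of the 18 probe sets in Ednrb null minus wild type, Ednrb NCC null minus wild type and Ednrb null minus Ednrb NCC null. In the first panel 11 probe sets lie between -3.65 and -0.79 and the other 7 between -0.21 and 0.18; in the second Galc 1452907_at stands at -1.42 and Zfp979 at -2.18, and the others lie between -0.99 and 0.52.

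Chromosome 13 held 4 of the 10 genes, chromosomes 1, 4, 11, 12, 18 and X 1 each. Of 702 measured genes of chromosome 13, 9 were at least 2-fold below wild type in Ednrb null, or 1.28%, against 0.687% of all genes; 4 of the 9 are Zfp429, Zfp874a, Arsk and Tmem267 themselves. The 4 do not form 1 block: 65 measured genes lie between Zfp874a and Arsk, and 188 between Arsk and Tmem267. Chromosome 14, which carries Ednrb, had a higher share, 1.56% (10 of 640), with none of the 10 genes among them. Ednrb itself, at -1.89, is counted in that share.

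The 5 nearest measured genes on either side were then read for each of the 10, or 88 genes in all, since Mid1 has 3 on one side and Zfp429 and Zfp874a share most of theirs. In Ednrb null, 11 of the 88 were called against wild type, or 12.5%, with 5 lower and 6 higher, where 4.79% of all genes were called. None was 2-fold lower in that comparison, where the lowest difference was -0.83. In Ednrb NCC null, 7 were called, all higher, or 7.95%, where 3.90% of all genes were. Between the mutants, 9 were called, 8 of them lower in Ednrb null, or 10.2%, where 5.29% of all genes were. The lowest of these were Ccl6 at -1.16, 2.23-fold lower, and Rsl1 at -0.999. These counts changed with single arrays and with the covariates. Without single arrays they ranged from 6 to 11 for Ednrb null, 2 to 8 for Ednrb NCC null and 3 to 9 between the mutants, and with the Actb ratio in the fit 2 were called for Ednrb null and 2 between the mutants.

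Near Tmem267, 3 of 10 neighbours were called lower in Ednrb null. The gene 4833420G17Rik read 9.81, 10.06 and 9.77 in Ednrb null arrays, 10.40, 10.33 and 10.36 in Ednrb NCC null arrays, and 10.71, 10.67 and 10.75 in wild type. The 3 groups did not overlap, in the same order as for Tmem267. Between the mutants it differed by -0.48 ± 0.09 (SE; limma, adjusted p = 0.0139), a call lost without Ednrb null 29, Ednrb null 41 or Ednrb NCC null 6, at -0.45, -0.43 and -0.48, and with the Actb ratio or the Y-linked level in the fit, at -0.50 and -0.49. The adjacent 3110070M22Rik, whose RefSeq range overlaps that of Tmem267, read 4.29, 4.43 and 4.07 in Ednrb null arrays, 5.42, 5.13 and 4.95 in Ednrb NCC null arrays, and 5.15, 5.06 and 5.04 in wild type. It was dim in all 9 samples, between the 9.88th and 29.1st percentile of its arrays. Its difference from wild type was -0.82 in Ednrb null, and between the mutants it was -0.90 ± 0.13 (SE; limma, adjusted p = 0.00357). With the Actb ratio in the fit these were -0.68 and -0.75 and neither was called (limma, adjusted p = 0.212 and 0.186). On the other side the chemokine gene Ccl28 differed by -0.56 in Ednrb null, a call lost without Ednrb null 29 or 37 or wild type 1B or 1D, at -0.59, -0.41, -0.50 and -0.59.

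Near Zfp979, 3 of 10 neighbours were called against wild type in each mutant, all higher, the other way from Zfp979. The median difference of the 10 was 0.04 for Ednrb null and 0.04 for Ednrb NCC null. Zfp982, the gene beside it, read 7.34, 7.41 and 6.91 in Ednrb null arrays, 7.53, 7.37 and 7.50 in Ednrb NCC null arrays, and 6.48, 6.33 and 6.41 in wild type. Zfp991 read 7.88, 8.32 and 8.06 in Ednrb null arrays, 8.11, 8.24 and 8.26 in Ednrb NCC null arrays, and 7.02, 7.17 and 7.41 in wild type. Fv1, which restricts murine leukaemia virus and has strain-specific alleles, read 6.49, 6.04 and 6.49 in Ednrb null arrays, 6.26, 5.77 and 6.13 in Ednrb NCC null arrays, and 5.04, 5.45 and 5.23 in wild type. In all 3 genes every mutant array lay above every wild type array, and the mutants overlapped. The differences for Ednrb null minus wild type were 0.81 in Zfp982, 0.89 in Zfp991 and 1.10 in Fv1. Those for Ednrb NCC null minus wild type were 1.06, 1.01 and 0.81 in the same order, and rest on the same wild type arrays.

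With the Actb ratio in the fit, Zfp982 and Zfp991 were no longer called in Ednrb null, at 0.88 and 0.65 (limma, adjusted p = 0.0829 and 0.185). The Ednrb NCC null call of Fv1 was lost without Ednrb NCC null 2, without Ednrb NCC null 6 or without wild type 1B, where its difference was 0.71, 0.77 and 0.71. The probe sets of Zfp982, Rsl1, Erdr1 and 4833420G17Rik are of types that can match other transcripts.

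Around the other genes the neighbours gave isolated calls. Beside Arsk, Rfesd was called higher in both mutants, at 0.50 for Ednrb null and 0.48 for Ednrb NCC null, while Ttc37 on its other side was not called. Near Galc 1 of 10 was called in Ednrb null, Spata7, at 0.46. Near Terf1, Lactb2 was called higher in both mutants, at 0.53 for Ednrb null and 0.66 for Ednrb NCC null. These calls were also lost when single arrays were left out, which also leaves fewer arrays in the fit. Spata7 was not called without Ednrb null 29 or 37 or wild type 1B or 1D, at 0.42 to 0.45. For Ednrb null, Lactb2 was not called without Ednrb null 29 or 37 or any 1 of the wild type arrays, at 0.39 to 0.54, and Rfesd not without Ednrb null 37 or wild type 1B, at 0.43. For Ednrb NCC null, Lactb2 was not called without Ednrb NCC null 6 or wild type 1B, at 0.63 and 0.64, and Rfesd not without any 1 of the Ednrb NCC null arrays or wild type 1B or 1C, at 0.41 to 0.52. Of the neighbours of Zfp429, Rsl1, a zinc finger repressor of male-specific liver genes, was called lower in Ednrb null, at -0.59. Leaving out Ednrb null 29 or 41, or wild type 1B, 1C or 1D, ended that call, at -0.55, -0.51, -0.57, -0.58 and -0.62. Near Mid1, Erdr1 differed by -0.81 in Ednrb null, a call lost without Ednrb null 41 or wild type 1B, at -0.83 and -0.76. Of 10 neighbours each, Taf15 and Pcdhb9 had 0 called in Ednrb null, at differences of -0.54 to 0.05 for Taf15 and -0.03 to 0.51 for Pcdhb9; at an unadjusted p under 0.05 in limma there was 1 each.

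Between the mutants, 2 of 10 neighbours of Taf15 were called lower in Ednrb null. The chemokine gene Ccl6 read 5.71, 6.14 and 5.78 in Ednrb null arrays, 6.68, 7.29 and 7.14 in Ednrb NCC null arrays, and 6.44, 6.12 and 6.69 in wild type. Ednrb null lay below Ednrb NCC null without overlap, by -1.16 ± 0.19 (SE; limma, adjusted p = 0.00612), and each overlapped wild type. Ccl9, a related chemokine gene, differed by -0.73 ± 0.18 between the mutants (SE; limma, adjusted p = 0.045), a call lost without Ednrb null 29 or 41, any 1 Ednrb NCC null array or wild type 1B, at -0.78 to -0.59. The differences of Ccl6 and Ccl9 from wild type were below 0 in Ednrb null, at -0.54 and -0.33, and above 0 in Ednrb NCC null, at 0.62 and 0.41. None of these was called, and both genes overlapped wild type in each mutant. Near Zfp429, Rsl1 differed by -0.999 ± 0.133 between the mutants (SE; limma, adjusted p = 0.00258).

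The other calls between the mutants were 1 per gene. Near Arsk, Glrx, a glutaredoxin gene, was higher in Ednrb NCC null than in wild type, by 0.66 ± 0.13, and lower in Ednrb null than in Ednrb NCC null, by -0.61 ± 0.13 (SE). Beside Terf1, Sbspon was called likewise, at 0.95 ± 0.20 for Ednrb NCC null minus wild type and -0.86 ± 0.20 between the mutants (SE). Near Mid1, Prps2, a phosphoribosyl pyrophosphate synthetase gene, differed by -0.44 ± 0.09 between the mutants (SE). Beside Pcdhb9, Pcdhb10 was called higher in Ednrb null than in Ednrb NCC null, at 0.46 ± 0.11 (SE), the opposite direction to Pcdhb9. These calls were lost without single arrays. For the mutants, Glrx was not called without Ednrb null 29 or 41 or Ednrb NCC null 5 or 6, at -0.67 to -0.48, and Prps2 not without Ednrb null 37 or 41 or Ednrb NCC null 5 or 6, at -0.45 to -0.39. Sbspon was not called without Ednrb null 29 or 41, any 1 Ednrb NCC null array or wild type 1B, at -0.94 to -0.69, and Pcdhb10 not without any 1 array other than Ednrb null 41, at 0.32 to 0.50. For Ednrb NCC null against wild type, Glrx was not called without Ednrb NCC null 5 or 6 or wild type 1B or 1C, at 0.60 to 0.65, and Sbspon not without any 1 Ednrb NCC null array or wild type 1B or 1C, at 0.76 to 1.05. With the Actb ratio in the fit, Ccl9, Glrx, Sbspon, Prps2 and Pcdhb10 were not called between the mutants.

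**Figure D3:**
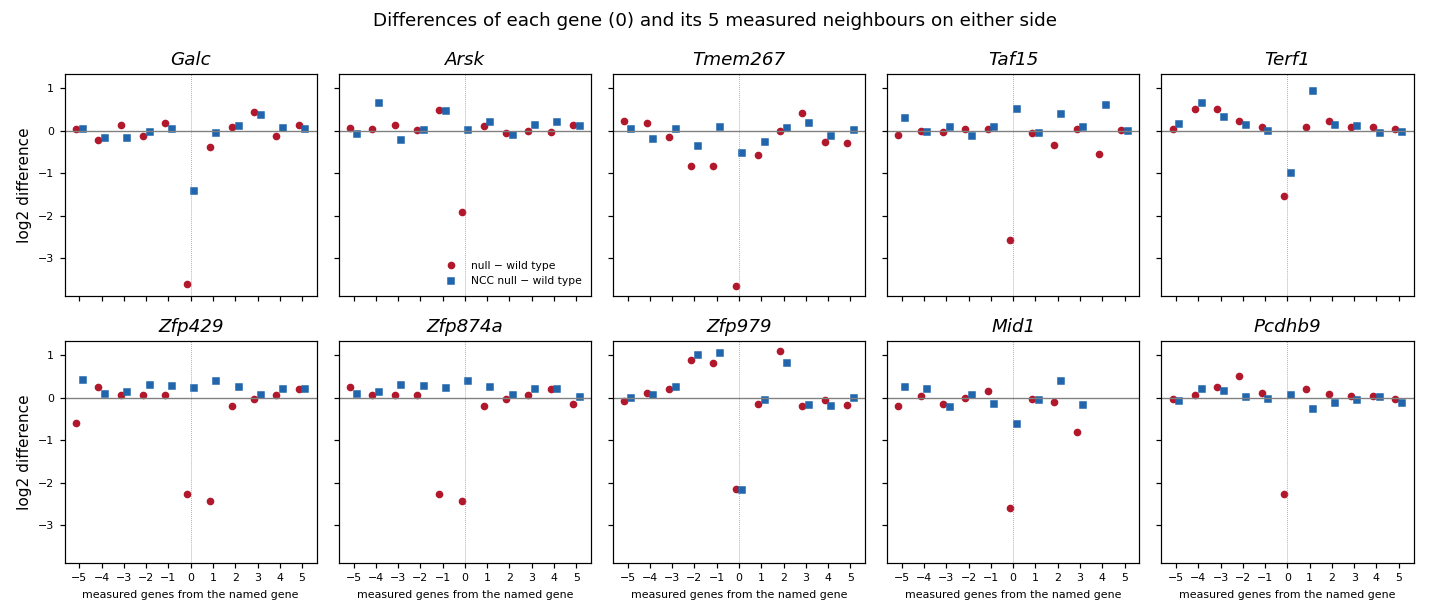
Log2 difference from wild type (vertical axis) of each of the 10 genes, at position 0, and of the nearest measured genes on either side (horizontal axis, counted in genes), with circles for Ednrb null and squares for Ednrb NCC null. Neighbours lie between -0.83 and 1.10, apart from Zfp429 and Zfp874a, which stand beside each other.

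The genes whose values over the 9 arrays were most like those of each of the 10 were read by Pearson's r of log2 intensity. The 9 arrays fall into 3 groups, which every r shares. For Zfp979 the most like was Pianp, a neural membrane protein gene on chromosome 6, with r = 0.995 and log2 differences of -2.12 for Ednrb null and -2.13 for Ednrb NCC null, each minus wild type. For Zfp874a it was Esco1, a cohesin acetyltransferase gene on chromosome 18, with r = 0.990. Esco1 was also the most like Arsk, with r = 0.984, and its differences were -1.41 for Ednrb null and 0.07 for Ednrb NCC null. Ednrb itself was among the 3 most like Taf15 (r = 0.978) and Zfp874a (r = 0.980). For Tmem267 the most like was Htra3, a serine protease gene, with r = 0.993, and for Galc it was 4833420G17Rik, with r = 0.987, the gene that lies near Tmem267 on another chromosome than Galc. For Taf15 it was 2610507I01Rik (r = 0.984), for Terf1 6030458C11Rik (r = 0.971), for Zfp429 Ccdc30 (r = 0.973), for Mid1 Alk (r = 0.961) and for Pcdhb9 Gpr135 (r = 0.979). The probe sets of 4833420G17Rik and Gpr135 are of a type that can match other transcripts. A high r does not mean a like size of change. In Ednrb null minus wild type Htra3 differed by -0.79, Alk by -0.24 and Gpr135 by -0.70, far less than Tmem267, Mid1 and Pcdhb9. The next most alike were Agfg2 and Shisa4 for Galc, Htra3 and Rsad1 for Arsk, Rsad1 and Setd5 for Tmem267, Lrrtm4 and Palm2 for Terf1, and Armc8 and Rbm28 for Zfp979. They were 1700086P04Rik and 8430419K02Rik for Zfp429, Htra3 and Setd5 for Mid1, and 8430419K02Rik and Arhgap31 for Pcdhb9. Besides Ednrb, Esco1 was among the 3 for Taf15 and 2610507I01Rik for Zfp874a. Their r lay between 0.955 and 0.991.

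Each difference of the 18 probe sets that was called kept its direction in every setting tried. Differences near 0 did not, such as Ednrb NCC null minus wild type in Arsk 1453109_at, which ranged between -0.12 and 0.10. With the Actb ratio in the fit, Ednrb null minus wild type was -3.34 in Tmem267, -1.86 in Zfp979, -1.78 in Pcdhb9 and -1.72 in Arsk. Whether a sequence difference between mouse strains lies under any of the probes was not tested, because neither the probe sequences nor the strains were used here.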

How the data were processed

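The authors deposited an intensity for each probe set on each array; RMA was used, per the submitters' processing notes, in a version not given in the sources used here. The deposited intensity values were linear, 5.69 to 61637, and log2 was taken with no pseudocount or further normalization. After 64 array controls, 45037 probe sets were tested. A mean per group was fitted over 9 arrays with limma 3.58.1 in R 4.3.3 (lmFit and eBayes, 2-sided, 1 shared spread). Benjamini-Hochberg adjustment ran over all 45037 probe sets, and lists and neighbours used the brightest probe set of each of 18193 genes. Groups came from the sample labels. The model was tested on simulated data. Gene order came from a RefSeq gene table, used only for names and order, with 18028 genes placed, and promoters from RefSeq, GRCm38.p6.

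Members and lists were chosen with earlier results of these data known. Named were the 10 genes with all probe sets, Ednrb, up to 4 list genes with the smallest p, called neighbours, and the 3 most alike genes. There is no count depth on arrays, and the number of arrays limits the precision. Alternatives were other normalizations, a filter on dim probe sets, other variance models, array weights, covariates and arrays left out.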

Additional observations from a re-analysis of the deposited data

How the results depend on the processing

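No paired analysis was possible because the groups share no replicate numbers. Called member probe sets for Ednrb null against wild type numbered 10 to 11 in every setting, arrays left out included. For Ednrb NCC null against wild type the count was 4, and 2 with the Y-linked level in the fit or, in a setting added after the data were seen, with both Ednrb NCC null 2 and wild type 1C left out; leaving out single arrays gave 2 to 5. The calls lost were those of Terf1. That of Terf1 1431332_a_at was also lost, at -0.695, when only the 2 groups compared were fitted (limma, adjusted p = 0.07). Zfp874a, at 0.42 with arrays centred on their medians, was called higher there, and also, at 0.40, without the dimmest 40% of probe sets, with the brightest probe set per gene or without Ednrb null 29. Tmem267, at -0.52, was called lower without Ednrb null 37. Between the mutants it was 8, and 6 with the Actb ratio in the fit, where Pcdhb9 and Mid1 were lost.

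Counts of called neighbours, for which the other settings were added after the data were seen, moved more. For Ednrb null against wild type the count was 11, and 2 with the Actb ratio and 7 without the pair of arrays, and leaving out single arrays gave 6 to 11. For Ednrb NCC null against wild type it was 7, and 2 with the Y-linked level and 2 without the pair, and single arrays gave 2 to 8. Between the mutants it was 9, and 2 with the Actb ratio and 3 with the Y-linked level, and single arrays gave 3 to 9. Calls lost with the Actb ratio cannot be laid to RNA quality, since that ratio was lowest in all Ednrb null arrays. The cause was not tested. No called difference of the 18 probe sets changed sign. RMA pulls dim values together, so folds of Zfp979, Tmem267, Zfp429, Zfp874a and Pcdhb9, dim in Ednrb null, can be understated.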
